A study of Mus musculus with 6 samples.

Results

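Connexins are membrane proteins that assemble in groups into channels, and channels of neighbouring cells dock to form gap junctions, through which ions and small molecules pass from cell to cell. Astrocytes are coupled into networks mainly by the products of *Gja1* and *Gjb6*, with *Gjb2* as a further astrocytic connexin that is also made by meningeal cells, whereas *Gja4*, *Gja5* and *Gjc1* are known from the vessel wall, where they couple smooth muscle cells, pericytes and endothelial cells. The 6 genes described here are *Gja1* (Cx43), *Gjb6* (Cx30), *Gjb2* (Cx26), *Gja4* (Cx37), *Gja5* (Cx40) and *Gjc1* (Cx45). They were chosen by name, 6 of 32285 genes counted, and were read in every barcode of 3 single-cell RNA-seq (scRNA-seq) libraries.

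The libraries were pools of cells from the amygdala of male wild-type C57BL/6N mice, 8 to 12 weeks old for the study's mice in general. All mice explored a conditioning chamber for 3 days. On day 4 they received no shock (NoFC) or foot shocks (FC), and further shocked mice were kept in the home cage 1 day later (NoFR) or returned to the chamber (FR), with tissue taken 90 min after the start of the last step. Every suspension was prepared with inhibitors of transcription and translation and sorted for ACSA-2, an epitope of the sodium pump subunit encoded by *Atp1b2*, with antibodies to CD11b, CD45 and O1 in the stain, and the mouse of origin was marked by hashtag antibodies (16 mice, 4 a group). The labels do not say that the libraries were more than separate pools, so p-values between cell classes concern 3 pools and not single mice. The test estimates the spread between pools in part from all genes tested together, and not from a connexin alone.

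Cell classes were set by counts of unique molecular identifiers (UMIs, counted molecules) of genes that are not connexins. Astrocytes had at least 20 UMIs of *Slc1a2* and *Slc1a3*, the glutamate transporters of astrocytes, and at most 3 of *Vtn* and *Rgs5*, which are abundant in pericytes. Pericytes, the mural cells of capillaries, had at least 10 UMIs of *Vtn* and *Rgs5*, at most 5 of the glutamate transporters, under 5 of *Acta2* and under 3 of *Dcn*. Acta2 cells had at least 5 UMIs of *Acta2*, the actin of smooth muscle, and Dcn cells at least 3 of *Dcn*, a proteoglycan of fibroblasts. Of 13546 barcodes, 8757 met the astrocyte gate, 2211 the pericyte gate, 22 the Acta2 gate and 41 the Dcn gate, and 2 barcodes that met 2 gates were left out of the sums, which leaves 8755 astrocytes and 39 Dcn cells. A further 2517 barcodes met no gate and had a median of 761 UMIs.

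Levels are given in CPM, the counts of a gene in the summed cells of a class scaled to a common total, for library 1, 2 and 3 in this order. The promoters are shown first because *Gja1* and *Gjb6*, and likewise *Gja4* and *Gjc1*, turned out to share a cell class. Printed are the 250 bases before the RefSeq start (GRCm38.p6, 5′ to 3′ on the gene's strand) of *Gja1* (chr10:56377050-56377299, forward strand), *Gjb6* (chr14:57133612-57133861, reverse strand), *Gjb2* (chr14:57104703-57104952, reverse strand) and *Gja4* (chr4:127314040-127314289, reverse strand). Capitals mark an AP-1 site (TGANTCA) or a GC box (GGGCGG on either strand).
Gja1: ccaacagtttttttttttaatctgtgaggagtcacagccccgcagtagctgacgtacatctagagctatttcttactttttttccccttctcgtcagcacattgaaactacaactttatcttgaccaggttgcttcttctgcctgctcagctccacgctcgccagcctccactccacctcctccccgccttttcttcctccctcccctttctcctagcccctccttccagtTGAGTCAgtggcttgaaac
Gjb6: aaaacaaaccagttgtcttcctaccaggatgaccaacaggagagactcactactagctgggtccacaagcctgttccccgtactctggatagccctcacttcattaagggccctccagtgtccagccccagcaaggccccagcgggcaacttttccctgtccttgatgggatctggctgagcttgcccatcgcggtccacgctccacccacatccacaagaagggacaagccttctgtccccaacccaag
Gjb2: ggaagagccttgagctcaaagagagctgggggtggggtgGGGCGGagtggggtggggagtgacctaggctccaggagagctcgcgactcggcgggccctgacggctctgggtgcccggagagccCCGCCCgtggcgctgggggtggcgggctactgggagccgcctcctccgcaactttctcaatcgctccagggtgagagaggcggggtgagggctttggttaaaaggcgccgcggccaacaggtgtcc
Gja4: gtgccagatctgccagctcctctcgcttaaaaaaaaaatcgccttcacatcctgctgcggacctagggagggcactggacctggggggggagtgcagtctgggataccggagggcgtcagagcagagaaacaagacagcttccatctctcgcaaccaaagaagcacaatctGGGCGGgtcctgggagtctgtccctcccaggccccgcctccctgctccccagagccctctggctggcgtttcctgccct

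The promoters of *Gja1* and *Gjb6* did not share a motif among the GC box, the TATA box (TATAAA) and the AP-1 site, which were searched on both strands. The AP-1 letters of the *Gja1* window began 19 bases before the start and overlapped an E-box (CANNTG), and such a site stood in 6.75% of the windows of 32851 genes. The *Gjb2* window held 2 GC boxes and the *Gja4* window 1, against 32.7% of all windows with at least 1. A TATA box was in none of the 4 windows and in 12.4% of all. E-boxes stood in the windows of *Gja1*, *Gjb6* and *Gjb2*, a motif of 66.2% of all windows. These are matches of letters and not measured binding. RefSeq sequences were matched for 5 of the 6 genes, all but *Gjc1*.

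In the GENCODE annotation of GRCm38, *Gja1* (ENSMUSG00000050953) lies on the forward strand of chromosome 10 from 56377330 to 56402513. *Gjb6* (ENSMUSG00000040055, chromosome 14 from 57123303 to 57133611) and *Gjb2* (ENSMUSG00000046352, chromosome 14 from 57098600 to 57104702) are neighbours on the reverse strand, 18.6 kb apart with the predicted gene *Gm4491* between them. *Gja4* (ENSMUSG00000050234) is on the reverse strand of chromosome 4 from 127311421 to 127314039, and *Gjc1* (ENSMUSG00000034520) on the reverse strand of chromosome 11 from 102799579 to 102819700. *Gja5* (ENSMUSG00000057123, chromosome 3, forward strand, from 96904693 to 97077416) overlaps 4 genes annotated on the other strand, so its counts may hold reads of these genes where counting did not use strand.

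The libraries held 5287, 3631 and 4628 barcodes with 42350059, 31700569 and 33368825 UMIs, and 18 barcode sequences occurred in more than 1 library. Median UMIs per cell were 9888 in astrocytes, 4976 in pericytes, 6706.5 in Acta2 cells and 6395 in Dcn cells. The classes of a library came from cells of the same mice. All samples are labelled astrocytes, and against this label pericytes expressed the pericyte list (*Pdgfrb*, *Kcnj8*, *Abcc9*, *Higd1b*, *Cspg4*, *Atp13a5*), summed to between 10790 and 10980 CPM over the libraries and to between 133.6 and 147.4 CPM in astrocytes. The study itself took pericytes out by *Pdgfrb* before its astrocyte analysis, whereas the deposited matrices still hold them. The astrocyte markers (*Aqp4*, *Atp1b2*, *Slc4a4*, *Ntsr2*, *Slc7a10*, *Mlc1*) summed to 4695 to 4822 CPM in astrocytes and 704.9 to 746.5 CPM in pericytes, in which *Atp1b2*, the antigen of the sort, stood at 79.01% to 84.65% of its level in astrocytes. Smooth muscle markers (*Tagln*, *Myh11*, *Myl9*, *Mustn1*, *Des*) were above 0 in the Acta2 cells and *Cnn1* was at 0. The list summed to 5012 to 7231 CPM in Acta2 cells, 1562 to 1621 CPM in pericytes and 614.8 to 1394 CPM in Dcn cells. All 6 markers of perivascular stromal cells were detected in Dcn cells, at a sum of 1481 to 4292 CPM. They were also all detected in pericytes, at 941.6 to 994.6 CPM, and in astrocytes, at 18.8 to 24.4 CPM. Dcn cells held the pericyte list as well, at 4292 to 12300 CPM. Of the endothelial markers *Cldn5*, *Pecam1* and *Ly6c1* were at 0 in Dcn cells, while *Flt1* had 33 UMIs in 14 cells, *Cdh5* 13 UMIs in 4 cells and *Tek* 2 UMIs in 2 cells.

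Compared with pericytes, astrocytes were higher in *Gja1*, *Gjb6* and *Gjb2* and lower in *Gja4* and *Gjc1*. *Gja1*, which makes the main gap junction protein of astrocytes, stood at 1530, 1642 and 1570 CPM in astrocytes and at 10.1, 12.8 and 20.9 CPM in pericytes. *Gjb6*, the second coupling connexin of mature astrocytes, stood at 354.4, 389.5 and 375.4 CPM in astrocytes and at 1.87, 3.48 and 6.34 CPM in pericytes. *Gjb2* was at 13.9, 13.3 and 14.7 CPM in astrocytes and at 0.94, 0.58 and 2.20 CPM in pericytes. For each of the 3 genes the lowest astrocyte library lay above the highest pericyte library.

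*Gja4*, known from arterial endothelium and smooth muscle, showed the opposite pattern, with 316.5, 293.8 and 311.0 CPM in pericytes and 0.055, 0.037 and 0.32 CPM in astrocytes, where 12 UMIs were counted in 8755 cells. *Gjc1*, a connexin of smooth muscle and of the conduction system of the heart, stood at 806.3, 781.2 and 741.3 CPM in pericytes and 5.54, 5.31 and 4.39 CPM in astrocytes. Both genes separated the classes in each library. Of all UMIs of *Gja1* in the data, 97.8% came from astrocytes, and of those of *Gja4* and *Gjc1*, 90.3% and 87.2% came from pericytes. Of the 107419453 UMIs of all genes, astrocytes held 91389042 and pericytes 11348770. *Gja5*, whose CPM ranges overlapped between these classes, also had 84.4% of its UMIs in astrocytes.

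In edgeR's quasi-likelihood test on the summed UMIs with the library as a block, 5 of the 6 connexins passed the filter on low counts and all 5 differed between astrocytes and pericytes after Benjamini-Hochberg adjustment, against 79.9% of the 12194 genes tested. The log2 fold change of astrocytes over pericytes was 7.05 (SE 0.45) for *Gja1* (edgeR adjusted p = 6.94e-24), 6.88 (SE 0.19) for *Gjb6* (edgeR adjusted p = 1.12e-46) and 3.75 (SE 0.30) for *Gjb2* (edgeR adjusted p = 7.20e-19). It was −10.78 (SE 0.14) for *Gja4* (edgeR adjusted p = 7.67e-67) and −6.995 (SE 0.24) for *Gjc1* (edgeR adjusted p = 5.28e-40). The median over all genes tested was 0.03. At such a background the calls alone do not set the connexins apart. Their sizes ran from 13.5-fold for *Gjb2* to 1758-fold for *Gja4*.

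**Figure D1:**
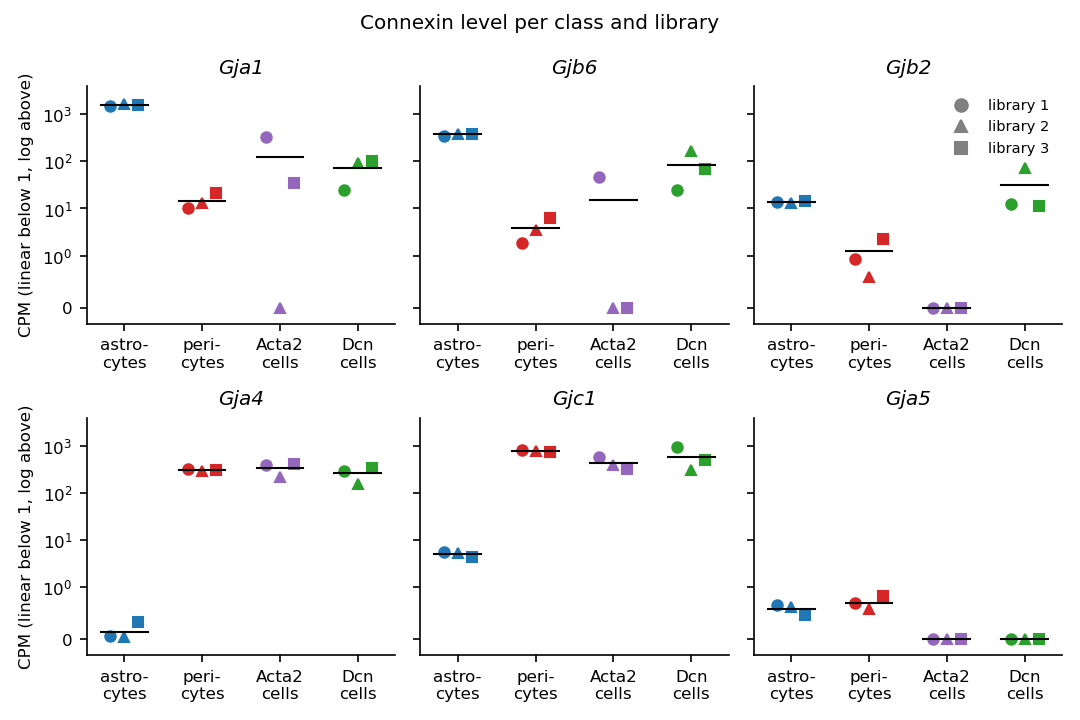
Level of the 6 connexins in the summed cells of each class and library, in CPM on an axis that is linear below 1 and logarithmic above, with library 1 as circles, 2 as triangles and 3 as squares and the mean of the 3 as a line. *Gja1* and *Gjb6* were highest in astrocytes, and *Gja4* and *Gjc1* were lowest there. *Gjb2* was low, at a mean of 13.95 CPM in astrocytes and 32.0 CPM in Dcn cells. The libraries of the Acta2 and Dcn cells scattered widely.

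*Gja5*, a connexin of arterial endothelium, had 64 UMIs in all barcodes and did not pass the filter. It stood at 0.66, 0.63 and 0.47 CPM in astrocytes and at 0.70, 0.58 and 0.83 CPM in pericytes, ranges that overlap. In Acta2 and Dcn cells it was at 0, which allows up to 14.7 and 10.7 CPM (3 UMIs of the class sum). At these depths a low level of *Gja5* in the rare classes was not detectable. Of 14 further connexin genes, 7 were at 0 in every barcode. None of the 14 passed the filter.

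A low count of a gene in droplet data can come from RNA free in the suspension, so the levels in the other class were set beside those of marker genes. *Gja1* in pericytes was 0.658%, 0.778% and 1.33% of its astrocyte level in the 3 libraries. For *Aqp4*, the water channel of astrocyte endfeet, the share was 0.759% to 1.28%, and for *Slc4a4*, a bicarbonate transporter, 0.684% to 0.9746%. Over the 5 markers other than *Atp1b2* it reached 2.32%, for *Mlc1*. The share of *Gja1* in library 3 lay above those of *Aqp4* and *Slc4a4* and below that of *Mlc1*, and the part of free RNA in it was not tested. *Gjb6* was at 0.528% to 1.69%, and the ratio of *Gjb6* to *Gja1* UMIs in pericytes, 0.264 (exact 95% interval 0.184 to 0.371), included the 0.236 of astrocytes. The ratio of *Gjb2* to *Gja1* UMIs did not, at 0.0859 (0.0459 to 0.148) in pericytes against 0.00885 (0.00837 to 0.00935) in astrocytes, although only 14 *Gjb2* UMIs were counted in 2211 pericytes and none of them in the 903 pericytes assigned to a mouse. Intervals and limits cover counting error only.

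In the other direction, *Gjc1* in astrocytes was 0.593% to 0.687% of its pericyte level. The pericyte channel genes *Kcnj8* (0.026% to 0.058%) and *Abcc9* (0.030% to 0.053%) and *Higd1b* (0.022% to 0.065%) were lower there, *Cspg4* was at 0.336% to 0.412%, and *Atp13a5* and *Pdgfrb* were higher at 1.40% to 1.59% and 4.09% to 4.12%. *Gja4* in astrocytes, at 0.013% to 0.104%, lay with *Kcnj8*. The *Gjc1* UMIs of astrocytes therefore exceeded the share that *Kcnj8*, *Abcc9* and *Higd1b* left there and lay within the range of the pericyte list. The part of mural RNA in them was not tested.

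Cell by cell, with each cell thinned to 3000 UMIs and 541 shallower astrocytes and 157 pericytes left out, *Gja1* had a UMI in 90.9% of astrocytes (Wilson 95% interval 90.3% to 91.5%) and 4.09% of pericytes, and *Gjb6* in 63.2% of astrocytes (62.2% to 64.3%) and 1.07% of pericytes. *Gjb2* was found in 4.09% of astrocytes (3.68% to 4.54%) and 0.39% of pericytes. *Gja4* had a UMI in 54.7% of pericytes (52.6% to 56.9%) and 0.037% of astrocytes, and *Gjc1* in 83.6% of pericytes (81.9% to 85.1%) and 1.13% of astrocytes. Beside them, *Slc4a4* was at 4.48% in pericytes, near the share of *Gja1*, and *Kcnj8* at 0.134% in astrocytes, below that of *Gjc1*. These were the only markers thinned. As a share of the pericyte level, *Atp13a5* and *Pdgfrb* stood above *Gjc1* in astrocytes, and the part of background was not tested. Without thinning, the shares were 93.4%, 87.0% and 12.3% of astrocytes for *Gja1*, *Gjb6* and *Gjb2* and 68.9% and 90.7% of pericytes for *Gja4* and *Gjc1*. In Acta2 cells *Gja4* was found in 63.6% (43.0% to 80.3%) and *Gjc1* in 72.7% (51.9% to 86.9%), and in Dcn cells in 51.3% (36.2% to 66.1%) and 64.1% (48.4% to 77.3%), with intervals that overlapped between these classes.

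**Figure D2:**
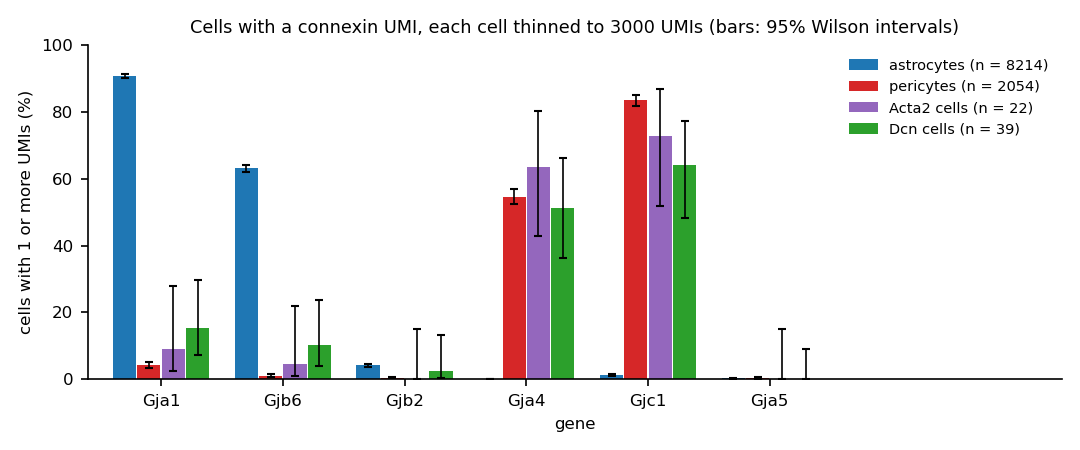
Share of cells with at least 1 UMI of each connexin after thinning each cell to 3000 UMIs, in percent on the vertical axis, for 8214 astrocytes, 2054 pericytes, 22 Acta2 cells and 39 Dcn cells, with Wilson 95% intervals as bars. *Gja1* reached 90.9% of astrocytes and *Gjc1* 83.6% of pericytes, and the intervals of the 2 rare classes are wide.

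Within the thinned astrocytes, *Gja1* and *Gjb6* were found together in 59.1%, 61.4% and 59.3% of cells of library 1, 2 and 3. *Gja1* alone had a UMI in 32.3%, 29.7% and 30.9%, *Gjb6* alone in 2.98%, 3.74% and 3.59%, and neither in 5.58%, 5.14% and 6.31%. Across cells of a library the Pearson correlation of both counts was 0.16, 0.23 and 0.25, a description over 3353, 2355 and 2506 cells that share a library and a sparse count. The ratio of *Gjb6* to *Gja1* UMIs over all astrocytes was 0.232, 0.237 and 0.239. Astrocytes with a *Gjb2* UMI (434, 307 and 340 cells) had *Gja1* at 1765, 1940 and 1838 CPM, and those without it at 1490, 1593 and 1524 CPM, while the ratio of *Gjb6* to *Gja1* was 0.220, 0.220 and 0.226 with and 0.234, 0.241 and 0.242 without. Cells with a *Gjb2* UMI were deeper, with a median of 11102 to 12109 UMIs against 9462 to 10150.

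Acta2 cells expressed the mural pair *Gja4* and *Gjc1*. *Gja4* stood at 398.6, 216.9 and 408.9 CPM in their libraries, on 35, 6 and 36 UMIs, and *Gjc1* at 580.9, 397.7 and 329.4 CPM, on 51, 11 and 29 UMIs. In library 3, 1 of the 7 Acta2 cells held 41593 of the 88045 UMIs, and its weight in these levels and differences was not tested. For *Gja4* these values lay on both sides of those of pericytes, and the log2 difference of pericytes less Acta2 cells was −0.22 (95% interval −0.66 to 0.22). *Gjc1* was lower in Acta2 cells in each library, with a log2 difference of 0.94 (SE 0.27, edgeR adjusted p = 0.0124), where 8.99% of genes were called in this pair of classes, 4.15% higher and 4.84% lower in pericytes. Without library 2 the difference in *Gjc1* was 0.81 and no longer passed (edgeR adjusted p = 0.120). *Gjb2* was at 0 in all 3 libraries, which allows up to 14.7 CPM over the class, above its level in astrocytes.

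*Gja1* in Acta2 cells was 330.3, 0 and 34.1 CPM, and 28 of its 29 UMIs in library 1 came from 1 cell with 277 UMIs of *Slc1a2* and *Slc1a3*, which also held all 4 *Gjb6* UMIs of the class. The test of pericytes against Acta2 cells passed for *Gja1* (log2 difference −3.29, edgeR adjusted p = 3.57e-05). It did not pass without library 1 (−0.56, edgeR adjusted p = 0.904) or with Acta2 cells of at most 5 astrocyte UMIs (−0.52, edgeR adjusted p = 0.870), so the difference rests on that cell. Against astrocytes, Acta2 cells had less *Gja1* and *Gjb6* (log2 difference of astrocytes less Acta2 cells 3.77 and 4.55) and more *Gja4* and *Gjc1* (−11.00 and −6.06), 4 of 5 tested connexins, where 27.8% of genes were called. The same cell held 28 of the 32 *Gja1* UMIs of the class, so the sizes for *Gja1* and *Gjb6* depend on it. Over 11 alternatives they ran from 3.22 to 6.56 and from 3.87 to 14.7, and each passed.

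To follow the mural pair along the content of *Acta2*, mural cells (the pericyte gate without its limit on *Acta2*) were summed in 4 ranges of *Acta2* UMIs, chosen after the values had been seen and given without a test. From 0 to 1 to 4, 5 to 19 and 20 or more UMIs (2190, 21, 11 and 9 cells), *Gja4* was at 304.5, 644.4, 674.0 and 407.3 CPM. Its exact Poisson intervals were 294.4 to 314.9 at 0, 504.2 to 811.6 and 489.8 to 904.9 in the middle ranges and 278.6 to 575.0 at 20 or more, so both middle ranges lay above the first in the summed cells. *Gjc1* was at 776.2, 948.8, 658.7 and 458.2 CPM, with intervals of 760.0 to 792.6 at 0 and 320.9 to 634.4 at 20 or more, which do not overlap. *Kcnj8*, the potassium channel subunit of pericytes, was at 1066, 241.7, 122.6 and 89.1 CPM. By library, *Gja4* in the range from 1 to 4 was 438.6, 1457 and 437.5 CPM, on 6, 4 and 11 cells, and in the range from 5 to 19 it was 460.2, 102.4 and 1401 CPM, on 6, 2 and 3 cells. The latter value of library 2 lay below the 286.2 CPM of its cells without *Acta2*, and the libraries thus did not all show the higher level.

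Dcn cells were mixed. *Gjc1* was at 937.7, 307.2 and 489.6 CPM, *Gja4* at 296.1, 153.6 and 330.2 CPM, *Gja1* at 24.7, 90.4 and 102.5 CPM, *Gjb6* at 24.7, 162.6 and 68.3 CPM and *Gjb2* at 12.3, 72.3 and 11.4 CPM. Compared with pericytes, *Gjb6* (log2 difference of pericytes less Dcn cells −4.47, SE 0.60, edgeR adjusted p = 2.42e-08), *Gjb2* (−4.73, SE 0.86, edgeR adjusted p = 4.79e-05) and *Gja1* (−2.26, SE 0.66, edgeR adjusted p = 0.0268) were higher in Dcn cells, 3 of 5 against 4.69% of all genes (1.24% higher and 3.45% lower in pericytes). *Gjc1* (0.62, edgeR adjusted p = 0.153) and *Gja4* (0.40, edgeR adjusted p = 0.437) did not pass. Against astrocytes, *Gja1* and *Gjb6* were lower in Dcn cells (log2 difference 4.79 and 2.41) and *Gja4* and *Gjc1* higher (−10.38 and −6.38), where 30.6% of genes were called, and *Gjb2* did not pass (−0.97, 95% interval −2.17 to 0.22). With only the Dcn cells that had a *Pdgfra* UMI, a choice made after the values were seen, *Gjc1* differed from astrocytes by −1.23 and no longer passed (edgeR adjusted p = 0.681).

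The astrocytic connexins of Dcn cells moved with the count of astrocyte transporters. Of the 39 cells, 9 had more than 5 UMIs of *Slc1a2* and *Slc1a3*, and without them the 3 differences from pericytes did not pass (edgeR adjusted p = 0.799 for *Gjb6*, 0.705 for *Gjb2* and 0.970 for *Gja1*). Of these 9 cells, 7 had a UMI of *Pdgfra*, a receptor of fibroblasts, so that most of the 12 Dcn cells with *Pdgfra* were left out by this limit. *Gja1* also did not pass without library 2 (edgeR adjusted p = 0.463) or library 3 (0.144), and *Gjb2* without library 2 (0.716). Under DESeq2 *Gja1* had an adjusted p of 0.171, and without the replicate block an edgeR adjusted p of 0.0748. *Gjc1* of pericytes less Dcn cells gained a call in 4 of 11 alternatives, without library 1 (log2 difference 1.09, edgeR adjusted p = 6.58e-05), without the filter (0.65), with filtered barcodes (0.64) and with only the *Pdgfra* cells (5.75), and *Gja4* in the last of these (2.83). No connexin of 5 differed between Acta2 and Dcn cells (edgeR, 5.95% of genes called, 2.86% higher and 3.08% lower in Acta2 cells).

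The Dcn cells were therefore also read by *Pdgfra*, again after the values had been seen and with no test. The 12 cells with a *Pdgfra* UMI (1, 6 and 5 in the libraries) held 17 *Gja1* UMIs in 8 cells, or 183.8 CPM (exact Poisson 95% interval 107.1 to 294.3), 25 *Gjb6* UMIs in 7 cells, or 270.3 CPM (174.9 to 399.0), and 9 *Gjb2* UMIs in 4 cells, or 97.3 CPM (44.5 to 184.7). A single cell gave 13 of the 25 *Gjb6* UMIs. *Gja4* and *Gjc1* were at 64.9 and 21.6 CPM. The same cells had 53 UMIs of *Col1a1*, a fibrillar collagen, 27 of *Lum* and 186 of *Slc6a13*, a GABA and taurine transporter of the leptomeninges. In the 27 cells without a *Pdgfra* UMI, *Lum* and *Col1a1* were at 0, *Kcnj8* at 1267 CPM, *Gja4* at 342.1 CPM (263.5 to 436.9) and *Gjc1* at 807.2 CPM (683.6 to 946.7), while *Gja1*, *Gjb6* and *Gjb2* were at 21.4, 5.35 and 5.35 CPM.

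Astrocyte RNA in the cells with *Pdgfra* was read from other genes. They held 7 UMIs of *Slc4a4* in 6 cells, or 75.7 CPM, against 14.8 to 21.2 CPM in the pericyte libraries, and 1 UMI of *Aqp4*. The 27 cells without *Pdgfra* held 25 UMIs of *Slc4a4*, or 133.6 CPM, of which 19 were in 1 cell, and 4 of *Aqp4*. Of their 154 *Slc1a2* UMIs, 141 were in 1 cell. The part of astrocyte RNA in either set was not tested. In the cells with *Pdgfra*, *Slc1a2* had 4 UMIs and *Slc1a3* 148, a ratio of *Slc1a3* to *Slc1a2* of 37.0 against 0.457 in astrocytes. Their ratio of *Gjb6* to *Gja1* was 1.47 (exact 95% interval 0.763 to 2.90) and that of *Gjb2* to *Gja1* 0.529 (0.208 to 1.26), both above the 0.236 and 0.00885 of astrocytes. By library, the ratio of *Gjb6* to *Gja1* was 1.00, 2.00 and 0.833 on 2, 9 and 6 *Gja1* UMIs. The interval of library 2 alone (0.853 to 5.05) excluded the ratio of astrocytes, but 13 of its 18 *Gjb6* UMIs came from 1 cell. The intervals, also those over all libraries, count the UMIs of a cell as independent, and the ratio without that cell was not tested.

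**Figure D3:**
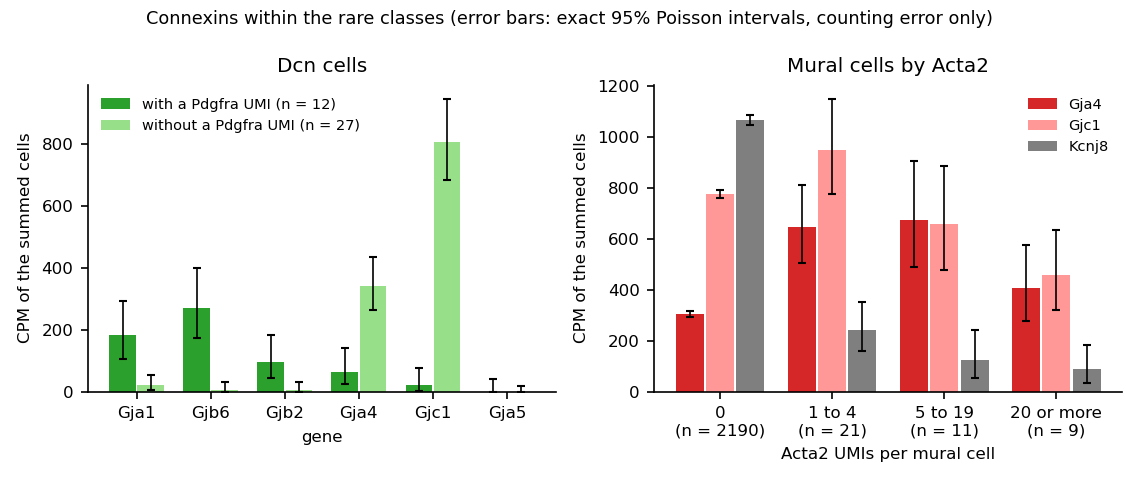
Left, CPM of the 6 connexins in Dcn cells with and without a *Pdgfra* UMI. Right, CPM of *Gja4*, *Gjc1* and *Kcnj8* in mural cells by their *Acta2* UMIs. Bars on the columns are exact 95% Poisson intervals over the summed cells; the 12 Dcn cells with *Pdgfra* carried *Gja1*, *Gjb6* and *Gjb2*, and the 27 without it *Gja4* and *Gjc1*.

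Astrocytes were then split by a UMI of each of 4 genes that vary among astrocytes, namely *Agt*, the precursor of angiotensin, *Igfbp2*, a binding protein of insulin-like growth factors, *Gfap*, an intermediate filament, and *Kcnma1*, a potassium channel. Of the 4 splits, that by *Agt* went with the largest differences in *Gja1* and *Gjb6*. *Gja1* stood at 1688, 1798 and 1767 CPM in astrocytes with an *Agt* UMI and at 1187, 1187 and 1079 CPM in those without, and *Gjb6* at 389.8, 422.5 and 423.3 against 277.8, 293.4 and 255.9 CPM. The groups did not overlap in either gene. *Gjb2* was 14.3, 15.1 and 16.3 against 12.8, 8.21 and 10.6 CPM, and *Gjc1* went the other way at 3.93, 4.21 and 3.58 against 9.03, 8.49 and 6.41 CPM.

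With *Agt*, *Gja1* was 1.54-fold (log2 difference 0.63, SE 0.06, edgeR adjusted p = 2.69e-12) and *Gjb6* 1.52-fold higher (0.60, SE 0.06, edgeR adjusted p = 1.20e-11), *Gjb2* was 1.43-fold higher (0.51, SE 0.12, edgeR adjusted p = 0.000537) and *Gjc1* 2.02-fold lower (−1.02, SE 0.16, edgeR adjusted p = 2.25e-06). All 4 tested connexins were called, against 27.3% of 14705 genes. Other lists moved with the split. All 6 astrocyte markers were higher with *Agt* (median log2 difference 0.39, beside 0.00302 for all genes), and of 4 tested neuron markers *Snap25* and *Rbfox3* were lower (median of the list −0.95). Their part in the connexin differences was not tested. The ratio of *Gjb6* to *Gja1* was 0.231, 0.235 and 0.240 with *Agt* and 0.234, 0.247 and 0.237 without it. Astrocytes with *Agt* were 65.6%, 71.2% and 67.8% of each library and had a median of 10004 to 10636 UMIs, against 8706 to 9348.5 UMIs without. Under DESeq2 *Gjb2* missed the threshold (DESeq2 adjusted p = 0.0541).

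*Igfbp2* divided astrocytes with no difference in *Gja1* beyond the spread, at 1469, 1690 and 1568 against 1561, 1619 and 1571 CPM (log2 difference 0.00, 95% interval −0.05 to 0.05). For *Gjb6* the difference was 0.05 (−0.02 to 0.12). These intervals stayed within about 0.12 on the log2 scale for cells with against cells without an *Igfbp2* UMI. They do not bound the difference between cells that express *Igfbp2* and cells that do not, since a UMI can be missed. *Gjc1* was lower with *Igfbp2* (4.03, 4.39 and 3.60 against 6.31, 5.73 and 4.79 CPM, log2 difference −0.49, edgeR adjusted p = 0.0216), where 37.6% of genes were called, and this call was lost under DESeq2 (adjusted p = 0.310) and without library 1 (edgeR adjusted p = 0.178).

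With *Gfap*, *Gja1* was at 1610, 1787 and 1686 against 1511, 1602 and 1542 CPM and *Gjb6* at 372.4, 418.4 and 394.2 against 350.3, 381.6 and 370.7 CPM, each higher in every library. The differences were small, 1.09-fold for *Gja1* (log2 0.13, SE 0.03, edgeR adjusted p = 0.00306) and 1.07-fold for *Gjb6* (log2 0.10, SE 0.03, edgeR adjusted p = 0.0364), with 11.2% of genes called. *Gja1* did not pass without the replicate block (edgeR adjusted p = 0.184) or with *Gfap* counted from 2 UMIs (edgeR adjusted p = 0.0951), and *Gjb6* passed in none of 7 alternatives (adjusted p from 0.0653 under DESeq2 to 0.349 in edgeR without the block).

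With *Kcnma1*, *Gja1* was at 1511, 1586 and 1536 against 1577, 1795 and 1675 CPM, lower in every library, but the log2 difference of −0.06 (95% interval −0.13 to 0.01) did not pass, and *Gjb6* differed by 0.07 (−0.00297 to 0.152). *Gja1* passed where *Kcnma1* was counted from 2 UMIs (−0.12, edgeR adjusted p = 0.0159), and *Gjb6* without the filter on low counts (0.10, edgeR adjusted p = 0.0301). *Gjc1* was at 3.51, 3.66 and 3.83 CPM with *Kcnma1* and at 10.8, 9.87 and 6.12 CPM without (log2 difference −1.23, SE 0.17, edgeR adjusted p = 7.17e-08), among 44% of genes called. The part of mural RNA in these low counts was not tested. *Gjc1* was thus lower in the cells with *Agt*, *Igfbp2* or *Kcnma1*, and it was lower with *Gfap* in 2 of 3 libraries. Cells without the marker were shallower in all 4 splits, at a median of 7728 to 9885 UMIs against 10004 to 12759 UMIs. Of the pericyte list, 0 of 5 tested genes were called with *Agt*, beside 27.3% of all genes. With *Igfbp2* 1 of 5 was lower, beside 37.6% of all genes called and 18.7% lower. With *Kcnma1*, 1 of 4 was called, and it was higher. Of 4 tested neuron markers, *Snap25* and *Rbfox3* were lower in each of these splits, and *Slc17a7* was higher with *Igfbp2*. Of all genes, 14.7%, 18.7% and 22.5% were lower with *Agt*, *Igfbp2* and *Kcnma1*. Lists this short cannot be told from such shares. The part of such RNA in the *Gjc1* differences was not tested.

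**Figure D4:**
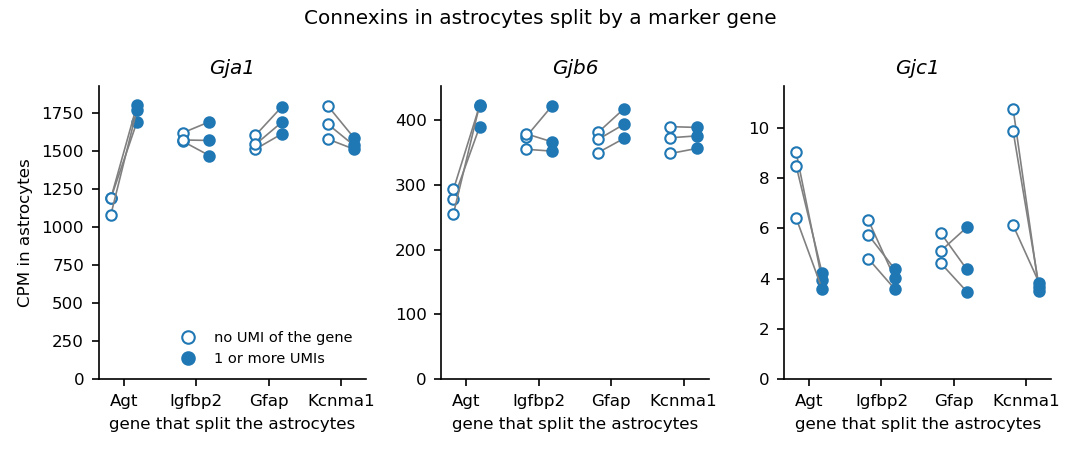
CPM of *Gja1*, *Gjb6* and *Gjc1* in astrocytes without (open) and with (filled) a UMI of *Agt*, *Igfbp2*, *Gfap* or *Kcnma1*, with lines joining the values of a library. The *Agt* split shows higher *Gja1* and *Gjb6* in each library, and *Gjc1* is lower with *Agt*, *Igfbp2* and *Kcnma1*.

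The behavioural groups were compared over mice, with cells assigned by their hashtags. Each mouse had 46 to 251 astrocytes and 30 to 134 pericytes. *Gja1* in astrocytes was 1360, 1502, 1525 and 1200 CPM in NoFC mice, 1570, 1491, 1646 and 1821 CPM in FC mice, 1525, 1544, 1617 and 1424 CPM in NoFR mice and 1477, 1450, 1782 and 1715 CPM in FR mice. The NoFC mice held the lowest value and overlapped with every other group. In the same order of groups, *Gjb6* was 346.3, 351.2, 391.8 and 313.5 CPM, then 328.7, 367.9, 367.2 and 413.4 CPM, then 386.9, 371.8, 335.9 and 321.5 CPM, and last 368.4, 441.0, 379.8 and 389.9 CPM, again with overlap between all groups. *Gjb2* ranged from 3.30 to 20.6 CPM over the 16 mice, on 3 to 47 UMIs.

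In edgeR's quasi-likelihood test with the library as a covariate, none of 18 tests of *Gja1*, *Gjb6* and *Gjb2* over the 6 pairs of groups passed, and of 9625 genes 0% were called in 5 pairs and 0.0104% in FR against NoFC. At an unadjusted p under 0.05 there were 291 to 564 genes a pair. The log2 difference from NoFC in *Gja1* was 0.18 in FC (95% interval 0.00 to 0.36), 0.17 in NoFR (−0.01 to 0.36) and 0.20 in FR (0.03 to 0.38), the last with an unadjusted p of 0.0254 and an edgeR adjusted p of 1.00. These 3 comparisons share the NoFC mice. With the lower hashtag threshold of 0.95, the difference in FR was −0.02. The intervals for *Gja1* stayed within 0.38 on the log2 scale in either direction for all 6 pairs, with the assignment of cells to mice taken as exact. The hashtags that were kept had a mean of only 0.218 to 3.99 UMIs. With the threshold of 0.95, called doublets rose from 1976 to 4368. The effect of wrongly assigned cells on the differences was not tested, and a larger change in *Gja1* is therefore not excluded.

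The ratio of *Gjb6* to *Gja1* UMIs per mouse does not depend on the scaling of the sums. NoFC mice had a ratio of 0.252 ± 0.0122 (SD, n = 4) and FC mice one of 0.227 ± 0.0155 (SD, n = 4). It was 0.232 ± 0.0198 (SD, n = 4) for NoFR and 0.249 ± 0.0400 (SD, n = 4) for FR mice. The largest difference, of FC from NoFC, was −0.0251 (2-sided exact permutation p = 0.0571, Benjamini-Hochberg adjusted over 6 pairs 0.343), and the smallest p that 4 mice against 4 allow is 0.0286. In NoFC mice the ratio ran from 0.234 to 0.261 and in FC mice from 0.209 to 0.247, so the groups overlapped. No pair passed.

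In pericytes *Gjc1* was 835.3, 658.2, 782.0 and 847.0 CPM in NoFC mice, 1223, 826.2, 889.3 and 870.8 CPM in FC mice, 617.8, 702.8, 730.7 and 721.2 CPM in NoFR mice and 878.6, 846.0, 631.2 and 682.0 CPM in FR mice. Every NoFR mouse lay below every FC mouse. *Gjc1* was 0.52 lower on the log2 scale in NoFR than in FC mice (SE 0.13, edgeR adjusted p = 0.0478). This was 1 call in 12 tests of *Gja4* and *Gjc1* over 6 pairs, where 0.595% of 5886 genes were called for this pair. In the other pairs called genes were 1.12% in NoFR against NoFC (0.578% higher, 0.544% lower), 0.0849% in FR against NoFC (0.034% higher, 0.051% lower), 0.034% in FR against NoFR and 0% in the last 2 pairs. In library 1, which held 2 mice of each group, the FC mice had 1223 and 826.2 CPM and the NoFR mice 617.8 and 702.8 CPM. The other FC mice were in library 2 and the other NoFR mice in library 3. Without FC mouse 1 the log2 difference was −0.35 (edgeR adjusted p = 0.483), and with the hashtag threshold of 0.95 it was −0.48 (edgeR adjusted p = 0.399). The call was also lost when FC mouse 3 or 4, FR mouse 3, NoFC mouse 4 or any 1 NoFR mouse was left out (edgeR adjusted p = 0.0644 to 0.263).

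*Gja4* of the NoFC mice was 338.9, 384.8, 316.9 and 351.5 CPM in pericytes, and the FC mice had 391.0, 347.3, 369.9 and 317.5 CPM. In NoFR mice it was 321.0, 266.8, 290.8 and 267.7 CPM, and the FR mice had 313.2, 301.1, 311.4 and 350.6 CPM. NoFR mice held the lowest values of *Gja4* and overlapped with each of the other groups. The log2 difference of NoFR from FC was −0.38 (95% interval −0.68 to −0.07, edgeR adjusted p = 0.482), and from NoFC −0.30 (−0.58 to −0.02, edgeR adjusted p = 0.514). Neither passed after adjustment.

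**Figure D5:**
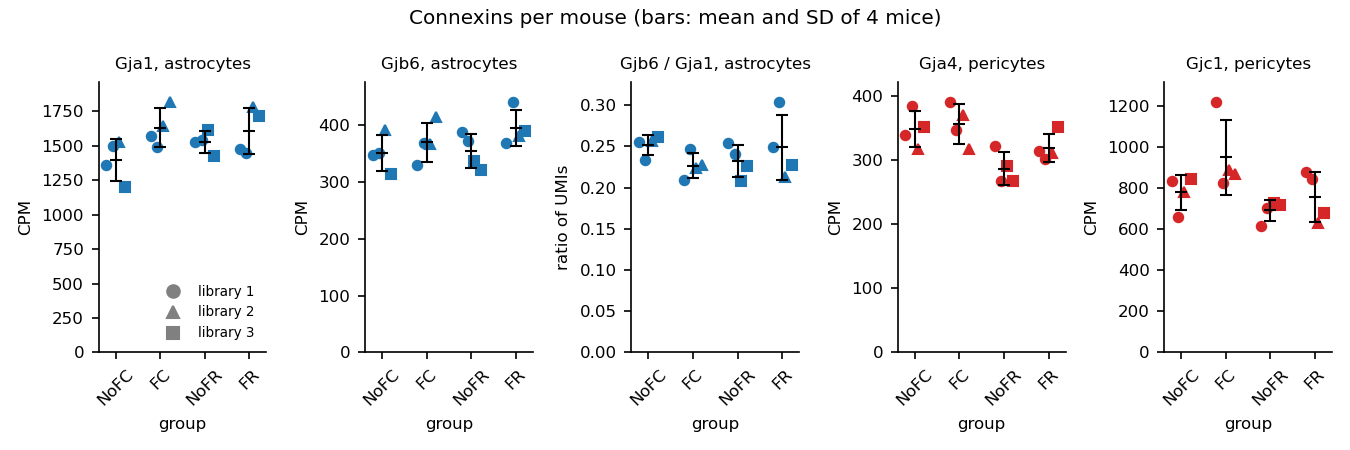
Connexins per mouse in the NoFC, FC, NoFR and FR groups, with CPM of *Gja1* and *Gjb6* and their ratio in astrocytes (blue) and CPM of *Gja4* and *Gjc1* in pericytes (red), symbols for the library and bars for the mean and SD of 4 mice. *Gjc1* of every NoFR mouse lies below every FC mouse, of which 1 stands apart at 1223 CPM.

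The list of genes whose proteins bind, anchor or route connexins held 12 measured members, of which 11 were tested between classes. Between astrocytes and pericytes, 6 were higher in astrocytes (*Hepacam* and *Mlc1* among them), 4 were lower (*Cav1*, *Tjp1*, *Nedd4*, *Ctnnb1*) and *Cdh2* did not pass, with a median log2 difference of 0.35 beside 0.03 for all genes and a background of 79.9% of genes called. *Hepacam*, an adhesion protein that localizes *Gja1* protein and *Mlc1* to astrocyte junctions, was at 568.2, 591.8 and 580.2 CPM in astrocytes and 6.32, 2.90 and 5.23 CPM in pericytes (log2 difference 7.15). *Tjp1*, the scaffold ZO-1 that binds the tail of several connexins, was at 397.7, 386.9 and 386.5 CPM in astrocytes and 842.6, 837.7 and 793.6 CPM in pericytes (−0.81, edgeR adjusted p = 0.00302). *Nedd4*, a ubiquitin ligase that targets *Gja1* protein, was at 317.3, 302.9 and 306.5 against 782.0, 749.3 and 747.4 CPM (−1.03, edgeR adjusted p = 5.80e-05).

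With *Agt*, the partners *Hepacam* (log2 difference 0.29, edgeR adjusted p = 8.15e-05) and *Mlc1* were higher, *Tjp1* (−0.23, edgeR adjusted p = 0.00142) and *Ctnnb1* were lower, and 7 of 11 did not pass, beside 27.3% of all genes called. Among the behavioural groups, *Cdh2*, the cadherin of adherens junctions, 1 of 4 partners tested in pericytes, was higher in pericytes of NoFR than of FC mice (log2 difference 0.76, SE 0.17, edgeR adjusted p = 0.0164) and of NoFC mice (0.75, SE 0.15, edgeR adjusted p = 0.00226), pairs in which 0.595% and 1.12% of genes were called, and no partner passed in astrocytes. At the hashtag quantile of 0.95 the genes called in these pairs fell from 35 to 7 and from 66 to 30. Whether *Cdh2* kept its calls under the alternatives was not examined. The pannexins, channel proteins that do not form gap junctions, summed to 1.03 to 1.33 CPM in astrocytes and 0.87 to 1.38 CPM in pericytes. They were too low to be tested between classes. In the astrocyte splits *Panx1* alone was tested, a gene with 86 UMIs in all barcodes. It was lower with *Agt* (log2 difference −2.98) and with *Kcnma1* (−2.99), where 27.3% and 44% of genes were called. *Panx1* did not pass in the splits by *Igfbp2* and *Gfap*.

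Over the 12 class sums, the genes with the pattern most like each connexin were ranked by the Pearson correlation of log2(CPM + 1) among 9948 genes, as a description in which 4 classes share 3 libraries. For *Gja1* they were *Slc4a4* (0.989), *Nebl* (0.984), *Fmn2* (0.984) and *Ttyh1* (0.984). For *Gjb6* they were *Tmcc3* (0.987), *Robo1* (0.983), *Kcnma1* (0.9754) and *Boc* (0.969). *Gja1* and *Gjb6* correlated with each other at 0.888, and *Gjb6* with *Gjb2* at 0.801. The 12 sums include the Acta2 sum of library 1, where 28 of 29 *Gja1* UMIs came from 1 cell, and its weight in the ranks was not tested. For *Gja4* the list was *Ahnak* (0.995), *Gpsm3* (0.994), *Cald1* (0.994) and *Carmn* (0.994), and for *Gjc1* it was *Tbc1d1* (0.998), *Pakap* (0.996), *Ptprk* (0.996) and *Higd1b* (0.996), with 0.986 between *Gja4* and *Gjc1*. *Robo1*, like *Gjb6*, was present in Dcn cells, at a mean of 151.0 CPM beside 267.3 CPM in astrocytes and 3.16 CPM in pericytes.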

How the data were processed

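The deposited matrices hold whole-number UMI counts of genes and hashtags per barcode, made by the authors with Cell Ranger (3.0 per the labels, 7.0.0 per the matrix headers) on mm10 with GENCODE annotation. Other settings are not given in the sources used here. From the Gene Expression rows, UMIs of the barcodes of each gate were summed per library, or per mouse, and tested with edgeR 4.0.16 (TMM, filterByExpr, quasi-likelihood fit, library as a block or covariate, Benjamini-Hochberg over all genes tested, threshold 0.05). The SE of an edgeR log2 difference was derived from that difference and its test statistic, and its interval from this SE. It is not a separate estimate of error. DESeq2 1.42.0 served as an alternative. Mice came from HTODemux (Seurat 5.3.0, positive quantile 0.99) on barcodes of 100 or more detected genes whose mitochondrial share was below 6%. Of 4135 singlets, 2654 carried a hashtag listed for a mouse of that library and 1481 did not and were left out, with 1976 doublets and 5197 negatives. Doublets in the gates were not called otherwise. In library 2, 2 hashtags with a mean under 0.2 UMI were dropped. Samples with hashtags alone were not grouped. The library block rests on the design: the classes of a library come from the same mice. Members and lists were chosen with earlier results of these data known. Besides the 6 connexins, listed genes were named where counted, at most 4 a list by mean CPM with marker lists in full, and the 4 genes with the highest correlation per connexin; *Kcnj8*, *Slc1a2*, *Slc1a3*, *Pdgfra* and the stromal genes were shown after their values were seen. The fit was also run on simulated counts, drawn from 1 common profile with few changed genes and no effect of the library. Such counts do not test the scaling or the block where most genes differ, as between astrocytes and pericytes.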

Additional observations from a re-analysis of the deposited data

Results flagged for a closer look

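*Gjc1* in pericytes of FC mouse 1 stood at 1223 CPM, while the other 3 FC mice lay between 826.2 and 889.3 CPM, a gap of 84.1% of the range of the group. It was the only sample set apart in 24 groups of 4 mice examined, where chance alone sets apart about 1 in 20. The call of *Gjc1* between FC and NoFR mice was lost without this mouse.

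Barcodes that met no gate were not part of the comparisons. Of these, 5 had at least 5 UMIs of endothelial markers, and their 34477 UMIs held *Gja1* at 377.1 CPM and *Gjc1* at 232.0 CPM, above the 87.0 CPM that 3 UMIs make. *Gja1* had 13 UMIs, of which 10 were in 1 cell, and *Gjc1* had 8 UMIs in 4 cells. *Aqp4* and *Kcnj8* were at 0 there, as were *Gja4* and *Gja5*, which allows each up to the same 87.0 CPM.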

How the results depend on the processing

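Over all alternatives, 447 log2 differences of single connexins kept their direction and their side of the threshold, 34 lost it, 10 gained it and 10 reversed, and of the ratio differences 100 stayed and 8 reversed. The cause of these changes was not tested. Of 30 tests between classes 18 passed, and 14 to 25 did under the alternatives, with 25 where only Dcn cells with a *Pdgfra* UMI were used (chosen after seeing the data) and 17 without the replicate block. Of 16 tests in the splits 8 passed, 5 under DESeq2 and 6 without the replicate block. The 1 call between groups in pericytes became 0 at the hashtag quantile of 0.95, and 0 to 1 with a mouse left out, lost in 9 of 16 cases.

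Reversals were as follows. *Gjb2* of astrocytes less Dcn cells was 0.92 among Dcn cells with at most 5 astrocyte UMIs and −1.40 to 0.66 with a library left out. *Gja4* of pericytes less Acta2 cells was 0.10 under DESeq2 and −0.369 to 0.0318 with a library left out. *Gja1* in FR less NoFC was −0.02 at the quantile of 0.95. In the *Igfbp2* split, *Gja1* was −0.00975 without the filter and −0.0270 to 0.0390 with a library left out, and *Gjb6* −0.0105 to 0.0926. In the *Kcnma1* split, *Gjb2* was 0.0192 without the filter and −0.0715 to 0.0496 with a library left out. The ratio of *Gjb6* to *Gja1* in FR less NoFC was 0.0057 after thinning, 0.00683 at the quantile of 0.95 and −0.0217 to 0.00868 with a mouse left out, that of NoFR less FC −0.00173 to 0.0136 and that of FR less NoFR −0.00206 to 0.0283.

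Counts over all genes moved more. Without TMM factors, genes higher and lower in astrocytes than pericytes went from 5027 and 4713 to 3943 and 5949 (median log2 difference from 0.03 to −0.24), against Acta2 cells from 1931 and 1453 to 1357 and 1768 (0.43 to 0.10), against Dcn cells from 1990 and 1746 to 1402 and 2392 (0.15 to −0.23), and in pericytes against Dcn cells from 151 and 421 to 65 and 446. DESeq2 called 1816, 2783, 646 and 3848 genes in the splits by *Agt*, *Igfbp2*, *Gfap* and *Kcnma1*, against 4011, 5494, 1630 and 6458, and the *Gfap* split had 191 without the replicate block. In the *Gfap* split DESeq2 gave no adjusted p for 11518 of 14490 genes, so its count covers fewer genes. Pericytes against Dcn cells had 572 genes, 135 with at most 5 astrocyte UMIs, 1238 with *Pdgfra* cells only and 212 without library 2, and astrocytes against Dcn cells 3736 and 2319 with *Pdgfra* cells only. Between mice, 10 to 45 genes a pair passed in astrocytes without the filter, against 0 or 1. In pericytes NoFR against NoFC had 66 genes, 41 under DESeq2, which gave no adjusted p for 3423 of 5886 genes, and 30 at the quantile of 0.95. NoFR against FC had 35, 7 at that quantile and 16 without FC mouse 1. FR against NoFC had 5, 11 without the filter and 0 under DESeq2 and at that quantile, and FR against NoFR had 2, 18 without the filter, 1 under DESeq2 and 0 at that quantile. FC against NoFC and FR against FC had 0 and each 2 without the filter. With 22 Acta2 and 39 Dcn cells, counting limits the rare classes.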
